A study of Homo sapiens with 54 samples.

Results

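The 9 genes BCL11B, FOXP1, FOXP2, MEIS2, EBF1, ISL1, SIX3, GSX2 and ZNF503 encode transcription factors of the lateral ganglionic eminence and of the striatal neurons that arise from it. They were taken by symbol from the 60676 genes of each library's table, and each symbol matched 1 gene. Their exon reads and TPM (exon reads per base of exon, scaled to the same total in every library) were followed in 53 libraries of 18 groups. All libraries came from hMSN-like cells, medium spiny neuron-like cells differentiated with activin A from H9, a single human embryonic stem cell line, so the groups differ in treatment and culture age but not in genotype. For each of 2 doses, 1 mM and 1 µM dopamine, there were 5 groups of 3 libraries, namely PBS, Acute 1 h and Acute 24 h (1 exposure, RNA taken 1 h or 24 h later), and Chronic 1 h and Chronic 24 h (an exposure on each of 5 days). A time course held the ascorbic acid vehicle (AA) and 2, 3, 4 or 5 days of 1 mM dopamine, with 3 libraries each except 5 Day with 2, since replicate 1 of 5 Day was not analysed here. An agonist experiment held water, 50 µM SKF82958 (an agonist of D1-like receptors) and 50 µM quinpirole (an agonist of D2-like receptors), with 3 libraries each. At each dose 1 PBS set served both the acute and the chronic cultures, which were collected at different culture ages, so exposure and age cannot be told apart between them. The study names ascorbic acid as the solvent of its dopamine and PBS as the control of both doses. Dopamine and ascorbic acid therefore cannot be told apart in the dose experiments. The labels do not say whether replicates came from separate differentiations, so p-values measure the spread between these libraries only.

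Medium spiny neurons are the GABAergic projection neurons of the striatum and receive dopamine through D1-like or D2-like receptors. GSX2 specifies progenitors of the lateral ganglionic eminence, MEIS2 and ZNF503 (NOLZ1) are expressed as these cells leave the cycle, and BCL11B (CTIP2), FOXP1 and FOXP2 are kept in maturing medium spiny neurons. EBF1 and ISL1 act in the D1-receptor lineage and SIX3 in the D2-receptor lineage. None of the 9 is restricted to the striatum, since BCL11B, FOXP1, FOXP2 and MEIS2 are also made in the developing cortex, ISL1 in cholinergic and motor neurons, and SIX3 in the hypothalamus and eye field.

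Exon reads per library ranged from 5755919 to 27702963, apart from quinpirole replicate 1, which held 137051 exon reads and had 96.7% of its gene reads in introns. This library is given separately below. Replicate 1 of 1 mM Acute 24 h also stood apart for several members, with 89.2 TPM of BCL11B against 37.0 and 39.5 in the other libraries of its group, and 1 mM results are given with and without it. The cell type label was checked against marker genes over the 12 control libraries. Of 6 neuronal genes 5 were high in each library, from SNAP25 (75.1 to 195 TPM) to STMN2 (879.7 to 1662 TPM), while RBFOX3, a gene of mature neurons, lay at 7.31 to 15.2 TPM. Also high were genes of dividing progenitors (SOX2 257 to 726 TPM, TOP2A 67.5 to 489 TPM). Among genes of medium spiny neurons, PPP1R1B (DARPP-32) lay at 7.70 to 44.7 TPM, ARPP21 at 7.22 to 22.7 TPM, DRD2 at 2.44 to 9.43 TPM, PENK at 1.10 to 5.37 TPM and DRD1 at 0 to 2.40 TPM. Of the 5 genes of cortical glutamatergic neurons, NEUROD6 at 541 to 1086 TPM, TBR1 at 126 to 182 TPM and SLC17A7 at 59.1 to 125 TPM lay above the range of PPP1R1B, and EMX1 at 15.1 to 65.0 TPM and EOMES at 30.8 to 81.6 TPM overlapped it. Of 4 genes of the medial ganglionic eminence, NKX2-1, LHX6 and LHX8 stayed under 1 TPM in every control library and SST, a peptide also made by other interneurons, lay at 2.74 to 61.6 TPM. Among genes of cholinergic and motor neurons, LHX8, SLC5A7 and LHX3 stayed under 1 TPM in each, while CHAT reached 1.19 TPM, MNX1 1.25 TPM and SLC18A3 5.90 TPM. In bulk RNA, fewer cells of a type and less RNA per cell cannot be told apart, and a share of each member's reads in cortical-type cells was not tested.

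In the control libraries the members fell into a high and a low block. BCL11B was highest, at a median of 56.1 TPM over 12 libraries (range 27.4 to 83.9). It was followed by ZNF503 at 42.7 TPM (17.0 to 82.2), SIX3 at 36.4 TPM (23.4 to 54.1) and MEIS2 at 36.4 TPM (26.3 to 55.3). The ranges of these 4 genes overlapped, so their order is not fixed by these libraries. No control library of the other 5 members reached the lowest value of the high block. FOXP2 had a median of 8.27 TPM (6.34 to 10.4), EBF1 6.02 TPM (0.946 to 7.84), GSX2 4.10 TPM (0.186 to 5.68), FOXP1 2.98 TPM (2.33 to 3.61) and ISL1 1.45 TPM (0.286 to 4.07). Neighbours in this low block overlapped too. Control sets differed for single members. BCL11B had 42.0, 27.4 and 42.1 TPM in 1 µM PBS and 70.3, 81.2 and 83.9 TPM in water, and GSX2 had 0.590, 1.09 and 0.279 TPM in 1 mM PBS against 5.68, 4.04 and 4.83 TPM in AA. These are the control sets of lowest and highest mean for each gene. The share of all genes that differ in this way between control sets was not counted. Levels were therefore compared within an experiment only.

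**Figure D1:**
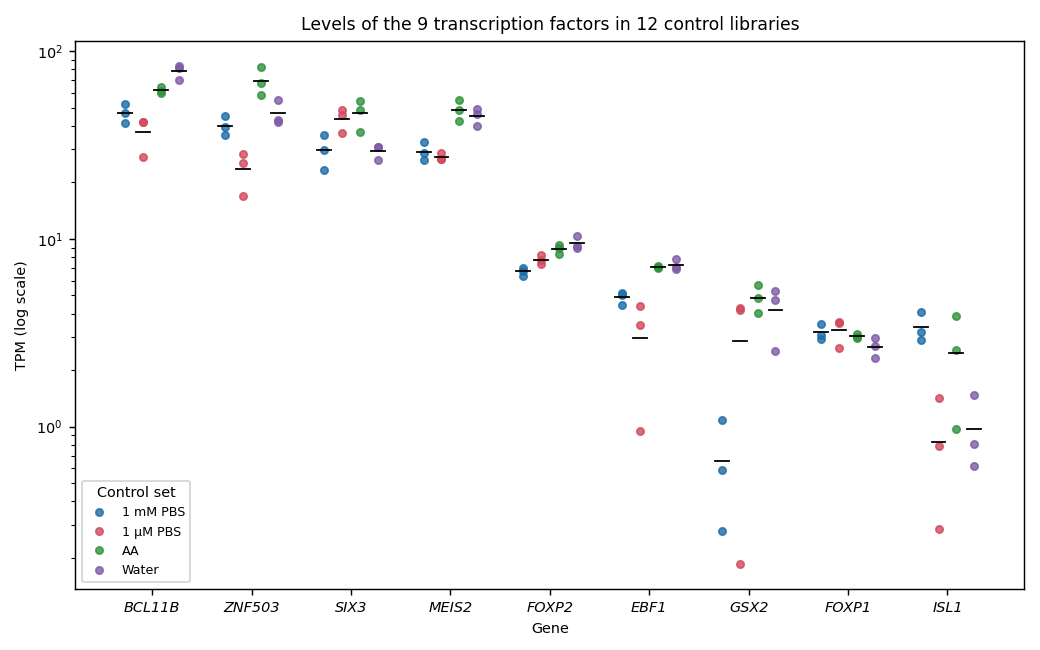
TPM on a log scale (vertical axis) of the 9 transcription factors (horizontal axis) in 12 control libraries. Each point is 1 library, colours mark the 4 control sets and black lines their means. BCL11B, ZNF503, SIX3 and MEIS2 lie above the other 5 genes in every control library.

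The level of FOXP1 is the least certain. Its exon length of 36714 bases sums over 76 transcripts (chromosome 3, 70952817 to 71583993, GRCh38), which lowers its TPM relative to its reads, and 64.5% of its exon reads were uniquely placed, against 96.4% or more for each other member. AC097634.4, an annotated protein-coding gene on the same strand, overlaps most of the locus. ISL1 and GSX2 rested on few reads. ISL1 had 0 to 54 exon reads per library outside quinpirole replicate 1, and its 2 libraries with no read, both of 1 µM Chronic 24 h, allow up to 0.387 and 0.445 TPM (3 reads, counting error only). GSX2 had 1 to 50 exon reads in the same libraries.

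Upstream sequence is shown for ZNF503, the member with the largest called change, and BCL11B, the member called most often in the time course. For both, a RefSeq start site is the end of the gene in the deposited tables. The 250 bases before it are given 5′ to 3′ on the gene's strand (GRCh38.p14), with the half-site of the cAMP response element (TGACG on either strand) in capitals, an element bound by a factor downstream of D1-like receptors.
ZNF503 (chr10:75401765-75402014, minus strand): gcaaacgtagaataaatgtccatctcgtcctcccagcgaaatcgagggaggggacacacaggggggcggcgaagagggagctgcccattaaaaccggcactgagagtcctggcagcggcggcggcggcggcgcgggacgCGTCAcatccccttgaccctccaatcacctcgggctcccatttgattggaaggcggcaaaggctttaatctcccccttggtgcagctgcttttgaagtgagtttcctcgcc
BCL11B (chr14:99272198-99272447, minus strand): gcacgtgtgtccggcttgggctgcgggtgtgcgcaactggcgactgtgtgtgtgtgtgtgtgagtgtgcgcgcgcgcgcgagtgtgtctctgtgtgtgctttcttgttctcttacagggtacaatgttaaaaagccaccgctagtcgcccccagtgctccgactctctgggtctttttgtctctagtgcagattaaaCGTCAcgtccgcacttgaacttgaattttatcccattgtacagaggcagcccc
Each window shown holds 1 such half-site, while a second RefSeq window of ZNF503 (chr10:75401917-75402166) holds none. Of the 16 windows that RefSeq gives for 8 members (SIX3 was not matched), 4 hold it, as do 21.2% of 35116 windows of the same length. None of the 16 holds the full element TGACGTCA (1.65% of all windows), the AP-1 site TGACTCA (4.20%) or the EGR1 site GCGGGGGCG (4.72%), and 1, of GSX2, holds the TATA box TATAAA (10.7%). GC content was 60.4% for ZNF503 and 54.8% for BCL11B, against a median of 58.0% over all windows. A match is a string of letters and not evidence of binding.

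The first question was what a single exposure to dopamine changed. ZNF503, EBF1 and SIX3 were higher 1 h after 1 mM dopamine. ZNF503, a zinc finger repressor of the lateral ganglionic eminence, had 45.4, 39.3 and 35.9 TPM in PBS and 99.4, 98.4 and 107 TPM at Acute 1 h. Every treated library lay above every PBS library (log2 fold change 1.41, SE 0.19, adjusted p = 0.000605). EBF1, a factor of the D1-receptor lineage, had 5.16, 4.45 and 5.04 TPM in PBS and 8.29, 7.20 and 10.3 TPM at Acute 1 h, again with no overlap (log2 fold change 0.88, SE 0.16, adjusted p = 0.00327). SIX3, a homeobox factor of the D2-receptor lineage, went from 36.0, 29.6 and 23.4 TPM to 43.8, 39.1 and 46.2 TPM, with the lowest treated library just above the highest PBS library (log2 fold change 0.60, SE 0.15, adjusted p = 0.0151). That is 3 of 9 members, all higher, where 16% of the 17804 genes tested were called (8.04% higher and 7.94% lower). The SIX3 call was lost without PBS replicate 2, PBS replicate 3 or Acute 1 h replicate 3 (adjusted p up to 0.0739), while the others held with each library left out. Lack of overlap was common in this comparison, since 53.7% of the genes at 1 TPM or more lay wholly apart from PBS (23.5% higher and 30.2% lower), as did 8 of 9 members, of which ZNF503, EBF1, SIX3 and GSX2 were higher and BCL11B, FOXP1, FOXP2 and MEIS2 lower.

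The other 6 members were not called at Acute 1 h. BCL11B had 46.9, 41.5 and 52.4 TPM in PBS and 38.6, 35.9 and 34.0 TPM at Acute 1 h (log2 fold change -0.31, adjusted p = 0.351). FOXP1 (-0.36), FOXP2 (-0.30), MEIS2 (-0.25) and ISL1 (-0.28) had negative log2 fold changes too, and GSX2, with 2 to 8 exon reads in PBS and 9 to 18 after dopamine, had 1.72 (adjusted p = 0.111). These results depended on the libraries in the fit. Without replicate 1 of 1 mM Acute 24 h, which enters the shared estimate of spread, 7 of 9 members were called, but so were 39.8% of all genes. BCL11B (-0.33, adjusted p = 0.00956), FOXP1 (-0.38, adjusted p = 0.0180) and FOXP2 (-0.32, adjusted p = 0.0408) were then lower and GSX2 (1.70, adjusted p = 0.0258) higher. The log2 fold change of BCL11B was near its first value and its SE went from 0.21 to 0.090. With only the libraries of PBS and Acute 1 h in the fit, 7 members and 45.5% of all genes were called, MEIS2 among them and lower (log2 fold change -0.27, adjusted p = 0.0412), while GSX2 had too few reads to be tested.

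Markers of other cell types also differed between these groups. The summed TPM of all 5 cortical glutamatergic markers lay at 1350.0 to 1406 in PBS and 525 to 655 at Acute 1 h, with none of them under 1 TPM in every library of a group. NEUROD6 was lower (log2 fold change -1.37, SE 0.15, adjusted p = 0.000164), as was SLC17A7 (log2 fold change -1.50, SE 0.27, adjusted p = 0.00357). The 6 markers of dividing progenitors overlapped, at 2702 to 3179.6 and 2814 to 3095 TPM. Of them HES5 alone was called, and it was lower. Of the 6 neuronal markers SYT1 and RBFOX3 were lower, and the sum went from 3137 to 3571 to 2858 to 3160.1 TPM. The 5 hypothalamic markers, among which 3 stayed under 1 TPM in PBS, summed to 8.80 to 12.5 TPM in PBS and 16.5 to 20.3 TPM at Acute 1 h, and RAX, a homeobox gene of the hypothalamus and eye field like SIX3, was higher (log2 fold change 1.15, SE 0.20, adjusted p = 0.00262). CHAT of cholinergic neurons was lower, with a list sum of 3.45 to 6.60 and then 1.71 to 2.93 TPM. The 4 genes of the medial ganglionic eminence summed to 34.2 to 62.0 and 25.1 to 34.0 TPM and those of motor neurons to 3.93 to 7.31 and 2.81 to 3.76 TPM, neither overlapping, with no call of SST. Astrocyte markers summed to 32.2 to 34.8 and 38.9 to 41.7 TPM. The part of these cells in the values of ZNF503, EBF1 and SIX3 was not tested.

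**Figure D2:**
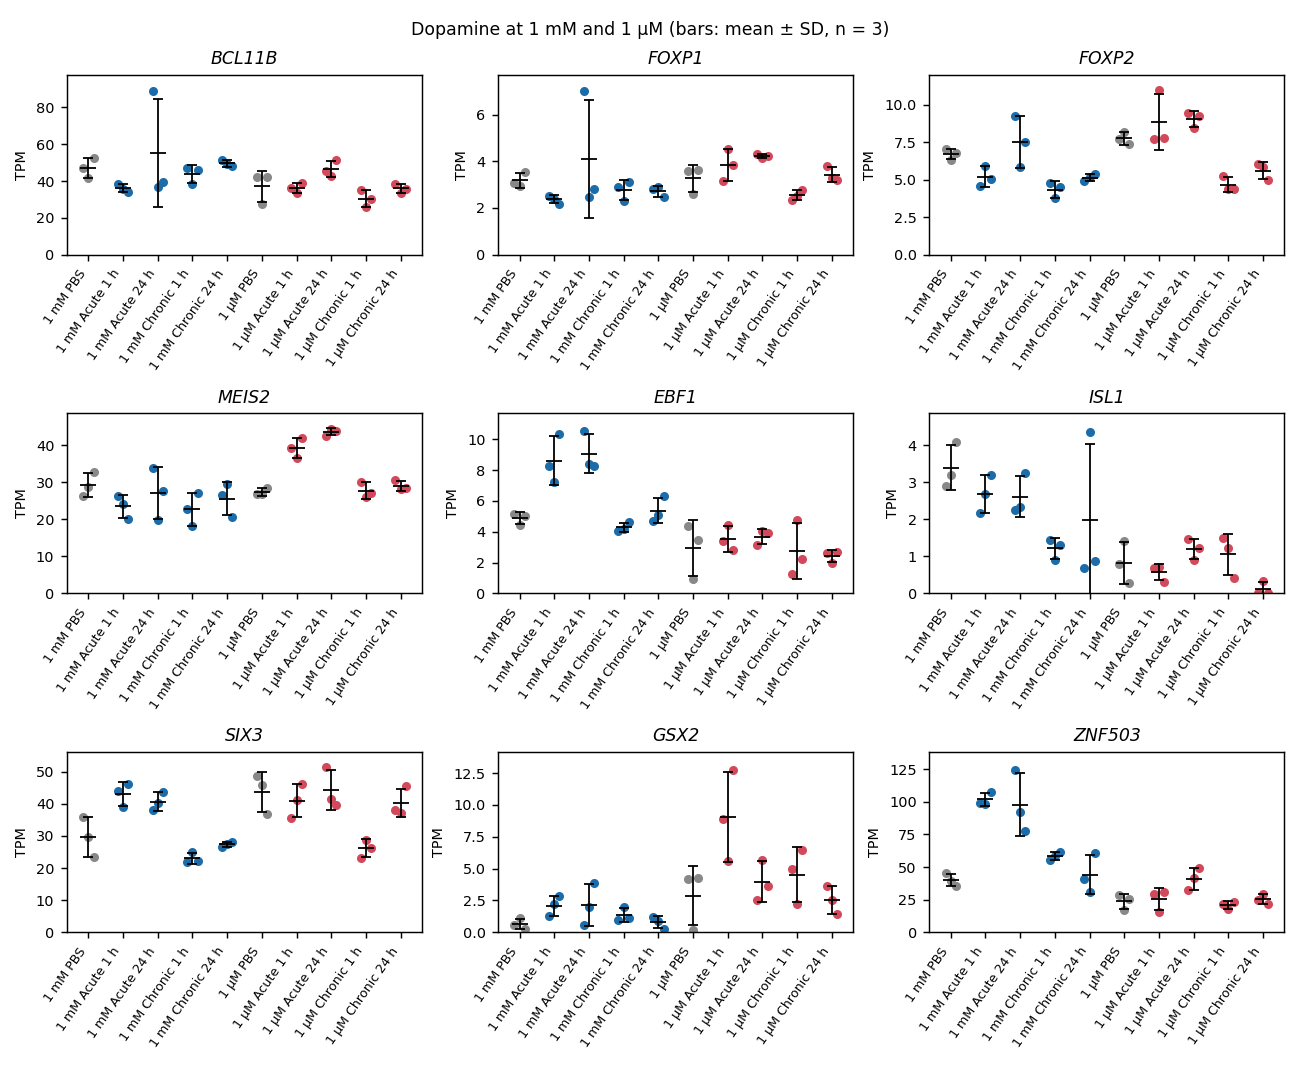
TPM (vertical axes, each from 0) of the 9 transcription factors in the 10 groups of the dopamine dose experiments (horizontal axes). Points are single libraries, black bars the mean ± SD (n = 3, cut at 0), grey marks PBS, blue 1 mM and red 1 µM. The 3 libraries of 1 mM Acute 1 h lie above the 3 of 1 mM PBS for ZNF503, EBF1, SIX3 and GSX2 and under them for BCL11B, FOXP1, FOXP2 and MEIS2.

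Reads in introns, which can come from unspliced RNA, did not follow exon reads for EBF1. EBF1 had 255, 295 and 253 intron reads in PBS and 37, 48 and 85 at Acute 1 h, and its intron reads alone were lower (log2 fold change -0.94, SE 0.21, adjusted p = 0.00246). Such a call was common, since 45.2% of all genes tested on intron reads were called in this comparison. Exon and intron reads together gave no call for EBF1 (log2 fold change -0.090, adjusted p = 0.589), where 47.2% of all genes were called. FOXP1 had 767, 862 and 687 intron reads in PBS and 189, 213 and 239 at Acute 1 h, which were also lower (log2 fold change -0.54, SE 0.14, adjusted p = 0.00670), and exon and intron reads together made FOXP1 a call (log2 fold change -0.69, SE 0.18, adjusted p = 0.00635). ZNF503 went the other way, from 3, 5 and 6 intron reads to 24, 19 and 21. The share of all gene reads in introns was itself 19.5% to 21.8% in PBS and 12.3% to 13.2% at Acute 1 h, and its part in the intron reads of EBF1 and FOXP1 was not tested.

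**Figure D3:**
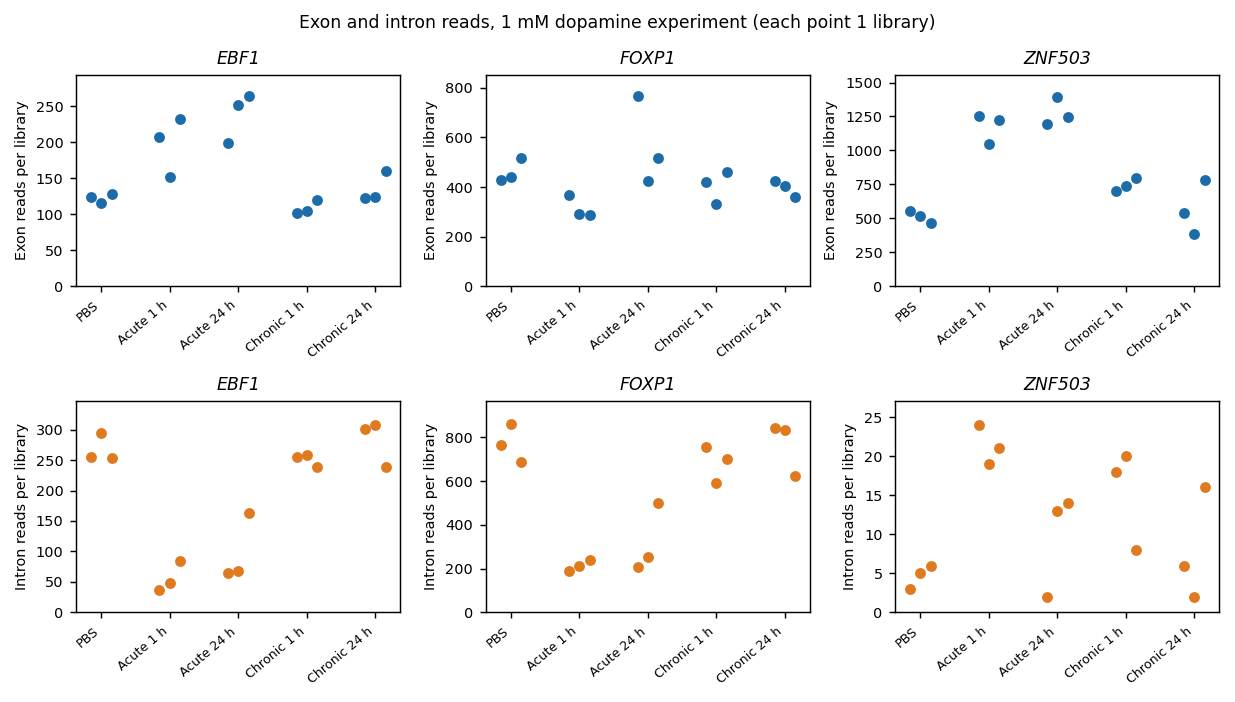
Exon reads (top, blue) and intron reads (bottom, orange) per library (vertical axes, from 0) of EBF1, FOXP1 and ZNF503 in the 5 groups of the 1 mM experiment (horizontal axes), not scaled for depth. Each point is 1 library. At Acute 1 h the exon reads of EBF1 lie above those of PBS and its intron reads below them, at 37 to 85 against 253 to 295.

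ZNF503 lies head to head with an antisense gene that moved with it. ZNF503-AS2, on the opposite strand with overlapping ends, had 7.08, 5.95 and 6.03 TPM in PBS and 14.4, 13.4 and 19.5 TPM at Acute 1 h (log2 fold change 1.38, SE 0.22, adjusted p = 0.00172). Whether the counting used strand is not given in the sources used here, so reads of the overlap cannot be assigned. SIX3-AS1, which overlaps the start of SIX3, was not called (log2 fold change 0.17, SE 0.57, adjusted p = 0.877).

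At Acute 24 h, ZNF503 and EBF1 were higher than in PBS, 2 of 9 members where 15.5% of all genes tested were called (8.38% higher and 7.09% lower). ZNF503 had 125, 91.8 and 77.3 TPM, all above PBS (log2 fold change 1.15, SE 0.19, adjusted p = 0.00379), and EBF1 10.5, 8.37 and 8.28 TPM, also all above PBS (log2 fold change 0.76, SE 0.16, adjusted p = 0.0110). The EBF1 call was lost without PBS replicate 2 (adjusted p = 0.0611), and with exon and intron reads together its log2 fold change was -0.12 (adjusted p = 0.468). SIX3 had 38.1, 40.4 and 43.7 TPM and was not called (log2 fold change 0.35, adjusted p = 0.110). BCL11B had 89.2, 37.0 and 39.5 TPM, of which replicate 1 alone lay above PBS. Without that replicate BCL11B was lower (log2 fold change -0.35, SE 0.10, adjusted p = 0.0231), SIX3 (log2 fold change 0.45, SE 0.13, adjusted p = 0.0223) and GSX2 (log2 fold change 2.09, SE 0.57, adjusted p = 0.0177) were higher, and 5 of 9 members were called beside 22.3% of all genes. With only the libraries of PBS and Acute 24 h in the fit, edgeR called 0% of all genes (3160 genes had an unadjusted p under 0.05), and ZNF503 had an adjusted p of 0.0647. ZNF503-AS2 was again higher (log2 fold change 0.92, SE 0.22, adjusted p = 0.0180), and the cortical glutamatergic markers summed to 575 to 819 TPM, the neuronal ones to 1634 to 2904 TPM and the cholinergic ones to 1.09 to 1.83 TPM, all below PBS. In this comparison 37.2% of genes did not overlap PBS. The part of these cells was not tested.

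After 5 daily exposures to 1 mM dopamine, ZNF503, EBF1 and SIX3 were not called against PBS. At Chronic 1 h, FOXP2, a forkhead factor, was called and was lower, 1 of 9 members beside 2.08% of all genes (1.27% higher and 0.814% lower). It had 7.03, 6.34 and 6.78 TPM in PBS and 4.80, 3.76 and 4.48 TPM at Chronic 1 h, with no overlap (log2 fold change -0.67, SE 0.14, adjusted p = 0.0258), like ISL1, ZNF503 and 41.7% of genes. This call was lost with any 1 of the 6 libraries of PBS and Chronic 1 h left out (adjusted p 0.0567 to 0.141), and held without replicate 1 of Acute 24 h (log2 fold change -0.67, SE 0.12, adjusted p = 0.00127), where 3 members and 18.4% of all genes were called. SIX3 (log2 fold change -0.41, adjusted p = 0.0311) and ZNF503 (0.50, adjusted p = 0.0443) were the others. With only PBS and Chronic 1 h in the fit, 5 members and 25.4% of all genes were called, FOXP2, MEIS2, ISL1 and SIX3 lower and ZNF503 higher. At Chronic 24 h neither edgeR nor DESeq2 called a member at an adjusted p under 0.05, beside 0.663% of all genes in edgeR, and 1 member, FOXP2, had an unadjusted p under 0.05. FOXP2 had 4.89, 5.17 and 5.38 TPM (log2 fold change -0.41, unadjusted p = 0.0102, adjusted p = 0.243). FOXP2 was called there without replicate 1 of Acute 24 h (adjusted p = 0.0401, 8.48% of all genes), and ISL1 without Chronic 24 h replicate 2, which had 4.36 TPM of ISL1 against 0.693 and 0.884 in the others (log2 fold change -2.13, SE 0.36, adjusted p = 0.0325).

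Chronic 1 h was set against Acute 1 h to ask how a repeated exposure differs from a first one. ZNF503, EBF1 and SIX3 were lower after the repeated exposure, 3 of 9 members beside 11.3% of all genes (5.37% higher and 5.91% lower). ZNF503 had 55.4, 58.6 and 61.5 TPM at Chronic 1 h (log2 fold change -0.91, SE 0.19, adjusted p = 0.00817), EBF1 4.04, 4.18 and 4.63 TPM (log2 fold change -1.11, SE 0.16, adjusted p = 0.000926) and SIX3 21.9, 25.0 and 22.3 TPM (log2 fold change -1.01, SE 0.15, adjusted p = 0.00109), with every Chronic 1 h library under every Acute 1 h library. Apart in this way were also ISL1 and 54.1% of genes (17.9% lower). All 3 calls held with each library left out. Intron reads turned the direction for EBF1, with 37, 48 and 85 at Acute 1 h and 255, 259 and 239 at Chronic 1 h (log2 fold change 0.83, adjusted p = 0.00886). On intron reads 32.9% of all genes were called here. Without replicate 1 of Acute 24 h FOXP2 was lower as well (log2 fold change -0.35, adjusted p = 0.0352), beside 34% of all genes, and with only these 2 groups in the fit ISL1 too (adjusted p = 0.00645), beside 44% of all genes. ZNF503 at Chronic 1 h still lay above every PBS library, but was not called against PBS (log2 fold change 0.50, adjusted p = 0.196). The cortical glutamatergic markers summed to 937 to 1238 TPM at Chronic 1 h, between Acute 1 h and PBS. NEUROD6 and SLC17A7 were higher at Chronic 1 h than at Acute 1 h and RAX was lower. GFAP of astrocytes was higher, with astrocyte markers at 59.4 to 66.9 TPM. The 6 markers of dividing progenitors summed to 2319.5 to 2492 TPM, below both Acute 1 h and PBS, and the 5 of oligodendrocytes to 131 to 137 TPM, above 91.1 to 105 at Acute 1 h and 81.6 to 96.8 in PBS. Hypothalamic markers, at 7.56 to 9.31 TPM, were below Acute 1 h, and cholinergic and motor neuron markers above it. The part of these cells in the 3 differences, or in FOXP2 against PBS, was not tested. The acute and chronic comparisons share the PBS libraries, and culture age differs between the groups.

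At 1 µM dopamine edgeR called no member at Acute 1 h, beside 5.77% of all genes (3.25% higher and 2.52% lower), and 2 members had an unadjusted p under 0.05. MEIS2, a homeodomain factor, came nearest, with 26.7, 26.7 and 28.6 TPM in PBS and 39.1, 36.6 and 41.8 TPM at Acute 1 h, with no overlap (log2 fold change 0.52, unadjusted p = 0.00359, adjusted p = 0.0580). GSX2 and 17.2% of genes did not overlap PBS either (9.68% of genes higher and 7.48% lower). MEIS2 was called without PBS replicate 2 (adjusted p = 0.0205). That library had 0.946 TPM of EBF1 and 0.186 TPM of GSX2, the lowest of both outside quinpirole replicate 1. It had exon reads in 16085 genes, against 21299 and 20989 in PBS replicates 1 and 3. Acute 1 h replicate 2 had 31.2% of its gene reads in introns, against 23.8% and 20.2% in replicates 1 and 3. DESeq2's Wald test called MEIS2 (adjusted p = 0.0168) and GSX2 (4.16, 0.186 and 4.28 TPM in PBS, 8.90, 5.63 and 12.7 TPM at Acute 1 h, adjusted p = 0.0496), beside 10.7% of all genes. At Acute 24 h, MEIS2 and ZNF503 were higher, 2 of 9 members beside 3.31% of all genes (1.4% higher and 1.91% lower). MEIS2 had 42.6, 44.4 and 43.8 TPM (log2 fold change 0.61, SE 0.15, adjusted p = 0.0396), and ZNF503 went from 28.4, 17.0 and 25.5 TPM to 32.6, 41.3 and 49.4 TPM (log2 fold change 0.76, SE 0.18, adjusted p = 0.0294), neither overlapping PBS, like BCL11B, FOXP1, FOXP2 and 21.1% of genes. The ZNF503 call was lost with any 1 of the 6 libraries left out (adjusted p up to 0.156), and the MEIS2 call with any but PBS replicate 2 (up to 0.141). The 5 cortical glutamatergic markers summed to 1041 to 1150.4 TPM in PBS, 768 to 856 at Acute 1 h, 935 to 992 at Acute 24 h and 874 to 889 at Chronic 1 h, each below PBS. Of the progenitor markers NES was higher at Acute 24 h (log2 fold change 0.62, SE 0.10, adjusted p = 0.00424) and VIM lower (log2 fold change -0.86, SE 0.10, adjusted p = 0.000369). Their part in the values of MEIS2 and ZNF503 was not tested.

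After repeated 1 µM dopamine neither edgeR nor DESeq2 called a member at Chronic 1 h (2.58% of all genes called by edgeR, 1.75% higher and 0.834% lower) or at Chronic 24 h (0% by edgeR, 1 gene by DESeq2, 608 genes at an unadjusted p under 0.05). At an unadjusted p under 0.05 there were 2 members at each time. The lowest adjusted p was that of FOXP2 at Chronic 1 h, with 7.72, 8.21 and 7.37 TPM in PBS and 5.23, 4.40 and 4.36 TPM (log2 fold change -0.72, unadjusted p = 0.0111, adjusted p = 0.168). SIX3 had 23.2, 28.9 and 26.3 TPM there against 48.7, 45.8 and 36.8 TPM in PBS (log2 fold change -0.70, adjusted p = 0.188). FOXP2 and SIX3 did not overlap PBS at Chronic 1 h, like 17.6% of genes (6.48% higher and 11.1% lower). Between Chronic 1 h and Acute 1 h, where 1.2% of all genes were called, no member passed in edgeR (4 at an unadjusted p under 0.05), and FOXP2 did in DESeq2's Wald test (log2 fold change -0.94 and adjusted p = 0.0901 in edgeR, adjusted p = 0.0167 in DESeq2). DESeq2 called 4.32% of all genes there.

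The 2 doses were compared by the difference of their effects in 1 fit of both experiments. Each dose had its own experiment and PBS libraries, so dose and experiment cannot be told apart. ZNF503 had a mean of 40.2 TPM in 1 mM PBS and 23.7 TPM in 1 µM PBS. ZNF503 at Acute 1 h was the member that differed, beside 2.01% of all genes (1.09% higher at 1 mM). Its log2 fold change was 1.41 at 1 mM and 0.10 at 1 µM, where it had 29.2, 15.7 and 31.0 TPM, and the difference in log2 fold change was 1.32 (SE 0.27, adjusted p = 0.00742). It held with each library left out. For EBF1 the difference was 0.50 with a 95% interval of -0.59 to 1.59, too wide to place the doses apart or together. MEIS2 had negative log2 fold changes at 1 mM and positive ones at 1 µM, with differences of -0.75 at Acute 1 h (adjusted p = 0.0996) and -0.87 at Acute 24 h (adjusted p = 0.0830), neither called. The second was called without 1 mM Acute 24 h replicate 3 (adjusted p = 0.0498). DESeq2 called it too (adjusted p = 0.0364), beside 2.39% of all genes, where edgeR called 0.663% of all genes (0.484% higher at 1 mM). Neither tool called a member at Chronic 1 h (0.087% of all genes called, 0.0653% higher at 1 mM) or Chronic 24 h (0.0109%), with 1 and 0 members at an unadjusted p under 0.05.

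In the time course BCL11B, a zinc finger factor needed for medium spiny neuron maturation, was called lower than in AA at 3 of 4 time points. It had 61.5, 64.4 and 59.8 TPM in AA and 44.1, 30.3 and 40.8 TPM after 2 days (log2 fold change -0.56, SE 0.10, adjusted p = 0.00741). After 3 days it had 53.4, 45.1 and 47.1 TPM and was not called (log2 fold change -0.25, adjusted p = 0.142). After 4 days it had 43.3, 49.8 and 44.2 TPM (log2 fold change -0.41, SE 0.10, adjusted p = 0.0329) and after 5 days 36.4 and 45.1 TPM (log2 fold change -0.48, SE 0.11, adjusted p = 0.0482). Every treated library lay under every AA library, as did those of 29.4%, 23.0%, 16.3% and 17.8% of genes at 2, 3, 4 and 5 Day. The 2 Day call held with each library left out. The 4 Day call was lost without 4 Day replicate 1 or 3 or any AA library (adjusted p up to 0.125), and the 5 Day call without any 1 of its 5 libraries (up to 0.131). All time points share the 3 AA libraries, so these are not independent results. In the dose experiment, 5 days of 1 mM dopamine gave 47.1, 38.5 and 46.2 TPM of BCL11B at Chronic 1 h against 46.9, 41.5 and 52.4 TPM in PBS, with overlap (log2 fold change -0.14, 95% interval -0.60 to 0.32), where the vehicle, PBS, was another one.

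EBF1 and MEIS2 gave the other calls of the time course. At 2 Day, 2 of 9 members were called, EBF1 higher and BCL11B lower (3.88% of all genes, 1.89% higher and 1.99% lower), and EBF1 went from 7.15, 7.02 and 7.13 TPM in AA to 10.6, 8.89 and 9.22 TPM (log2 fold change 0.56, SE 0.14, adjusted p = 0.0401). This call was lost with any 1 of its 6 libraries left out (adjusted p 0.0625 to 0.153). EBF1 stayed above the AA mean in each library of the later days, without a call. It had 10.3, 8.54 and 7.15 TPM at 3 Day, 10.1, 8.77 and 7.95 TPM at 4 Day and 10.1 and 9.84 TPM at 5 Day. At 3 Day its lowest library lay within the range of AA. At 4 and 5 Day EBF1 lay wholly above AA, as did 14.2% and 6.16% of genes. At 3 Day, 1 of 9 was called (7.37% of all genes, 4.77% higher and 2.6% lower), MEIS2, which had 55.3, 48.8 and 42.5 TPM in AA and 38.5, 34.0 and 34.6 TPM (log2 fold change -0.35, SE 0.083, adjusted p = 0.0174). The MEIS2 call was lost without 3 Day replicate 2, 3 Day replicate 3 or AA replicate 1 (adjusted p up to 0.115). MEIS2 had 50.3 and 61.8 TPM at 5 Day (log2 fold change 0.33, adjusted p = 0.0897). At 4 Day (4.38% of all genes called, 1.8% lower) and 5 Day (1.63%, 0.406% lower) BCL11B alone was called. ZNF503 had 58.2, 82.2 and 67.5 TPM in AA and passed at no day, with log2 fold changes of 0.22, -0.054, 0.25 and -0.029.

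The cortical glutamatergic markers summed to 892 to 1069 TPM in AA, 627 to 861 at 2 Day, 630.4 to 835 at 3 Day, 758 to 866 at 4 Day and 731 to 765 at 5 Day, and did not overlap AA at any day. BCL11B is also a gene of deep-layer cortical neurons. Of the 5 mesenchyme markers COL3A1 (log2 fold change 0.62, SE 0.15, adjusted p = 0.0306) and COL1A2 were higher at 2 Day, with a list sum of 169 to 225 TPM in AA and 212 to 325 TPM at 2 Day, and both were higher at 3, 4 and 5 Day too. SOX2 of progenitors was lower at 2 Day (log2 fold change -0.26, SE 0.066, adjusted p = 0.0403) and at each later day. S100B of astrocytes was higher at 2, 3 and 4 Day, with astrocyte markers at 55.7 to 71.4 TPM in AA and 91.5 to 115 TPM at 3 Day. At 3 Day 4 of 6 progenitor markers were lower and 1 higher. The 8 markers of striatal projection neurons summed to 54.1 to 61.8 TPM in AA and 40.8 to 52.3 TPM at 2 Day. At 3, 4 and 5 Day they summed to 52.5 to 56.0, 41.6 to 59.9 and 44.6 to 54.3 TPM, each overlapping AA. The part of these cells in the values of BCL11B, EBF1 and MEIS2 was not tested.

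**Figure D4:**
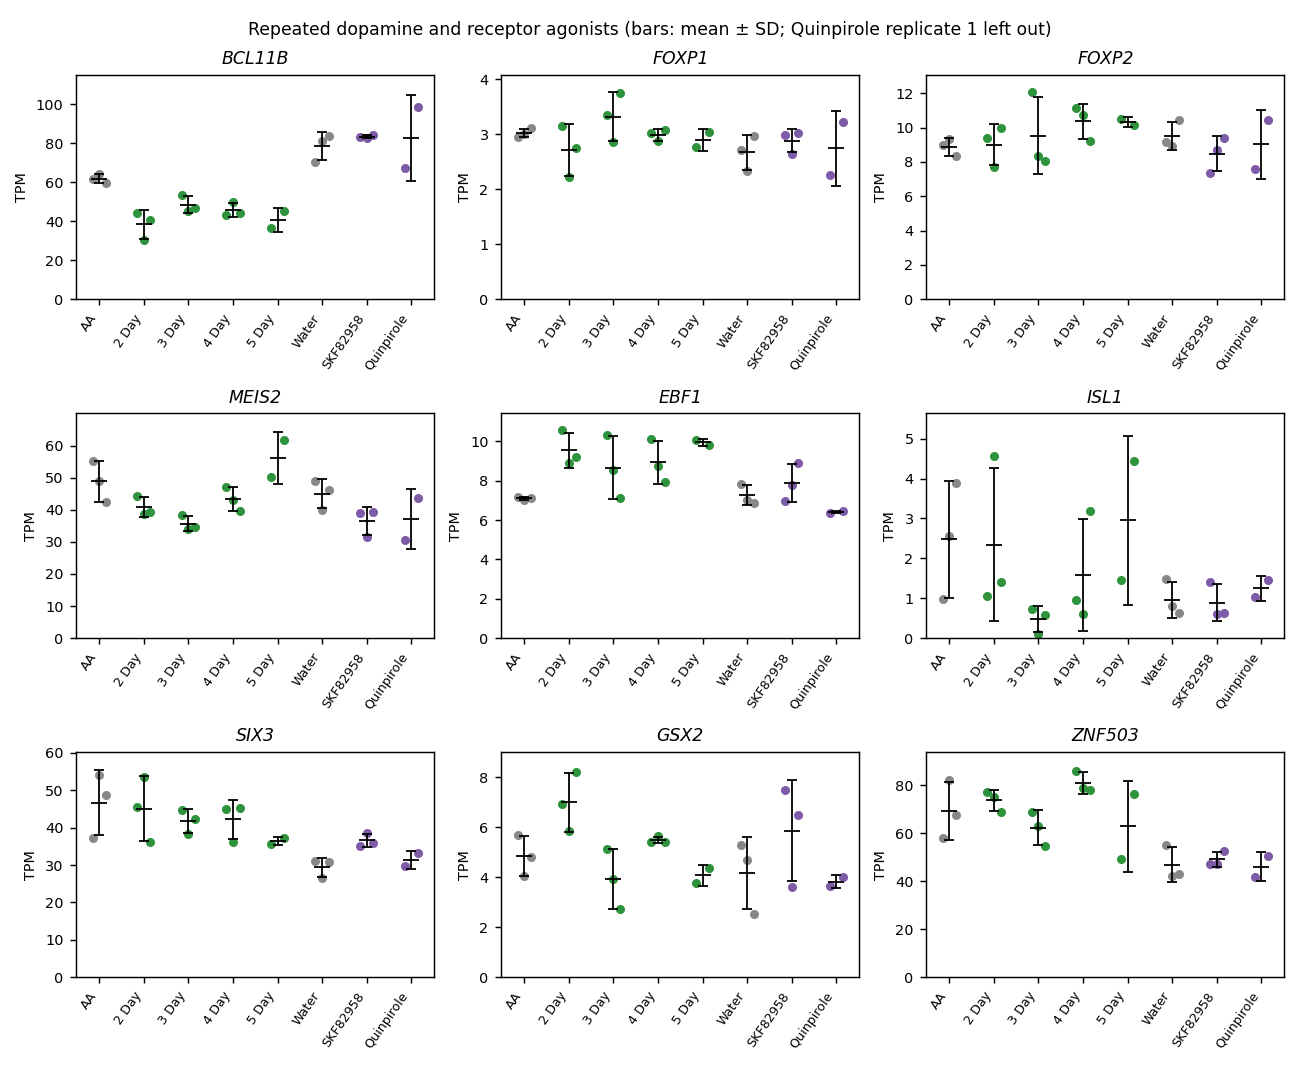
TPM (vertical axes, each from 0) of the 9 transcription factors in the time course and agonist groups (horizontal axes). Points are single libraries, black bars the mean ± SD (n = 3, or 2 for 5 Day and Quinpirole, whose replicate 1 is left out), grey marks AA and water. BCL11B lies lower in all 11 dopamine libraries than in the 3 AA libraries, and every agonist panel but those of SIX3, MEIS2 and EBF1 shows overlap with water for both agonists. Wholly apart from water were 19.6% of genes for SKF82958 and 13.0% for quinpirole without replicate 1.

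Neither edgeR nor DESeq2 called a member for either agonist, and none had an unadjusted p under 0.05. In edgeR 0.0124% of all genes were called for SKF82958 and 0% for quinpirole and for SKF82958 against quinpirole, with 185, 350 and 242 genes at an unadjusted p under 0.05 and 6, 110 and 53 genes called by DESeq2. These fits include quinpirole replicate 1, in which BCL11B had 63 exon reads and ZNF503 1. Without it, 0.624% of all genes were called for SKF82958, 0.184% for quinpirole and 0% between the agonists, again with no member among them in edgeR. The lowest adjusted p was that of MEIS2 under SKF82958, with 49.0, 39.9 and 46.1 TPM in water and 38.8, 31.5 and 39.2 TPM, all lower (log2 fold change -0.39, SE 0.090, adjusted p = 0.0858, unadjusted p = 0.000677). With only SKF82958 and water in the fit MEIS2 was called (adjusted p = 0.0430), beside 0.939% of all genes. SIX3 had 31.1, 26.5 and 30.7 TPM in water and 35.2, 38.6 and 36.0 TPM, all higher (log2 fold change 0.23, SE 0.10, adjusted p = 0.460). Under SKF82958, 17.3% of genes at 1 TPM or more lay wholly above water and 2.27% wholly below it. ZNF503 had 55.2, 42.2 and 43.2 TPM in water, 47.3, 47.3 and 52.7 TPM under SKF82958 and 41.7 and 50.4 TPM in quinpirole replicates 2 and 3. Without quinpirole replicate 1, the 95% interval of its log2 fold change was -0.24 to 0.20 for SKF82958 and -0.24 to 0.26 for quinpirole. For BCL11B the intervals were -0.15 to 0.16 and -0.063 to 0.28. At the single dose of 50 µM the agonists, which act on different receptor classes, differed from each other by a log2 fold change of -0.14 for MEIS2 (95% interval -0.36 to 0.078) and 0.17 for EBF1 (-0.16 to 0.49), neither called.

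**Figure D5:**
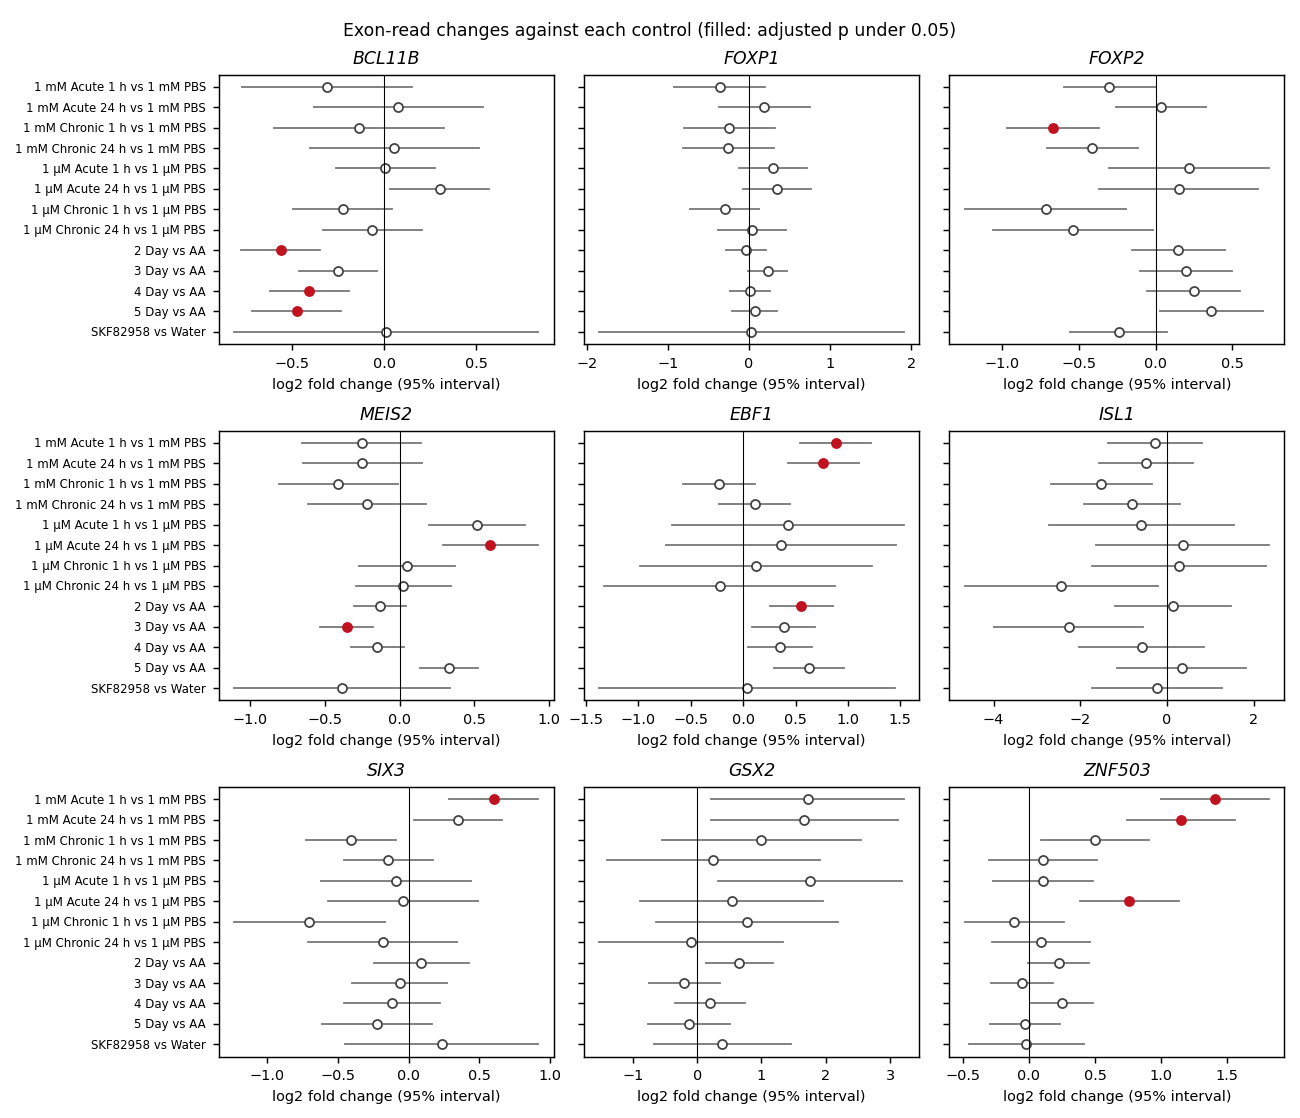
Log2 fold change of exon reads against the control of each experiment (horizontal axes) with its 95% interval (lines) for the 9 transcription factors and 13 comparisons (vertical axis). Filled red points passed an adjusted p under 0.05. The passed rises of ZNF503 and EBF1 are at 1 mM Acute 1 h and Acute 24 h, with further single ones at 1 µM Acute 24 h and 2 Day, and those of BCL11B are falls at 2, 4 and 5 Day.

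Related genes were counted from fixed lists. Of 12 paralogs of the members, 8 had enough reads to be tested at 1 mM Acute 1 h. EBF3, a paralog of EBF1, was higher (log2 fold change 1.26, SE 0.18, adjusted p = 0.00103), FOXP4 was lower (log2 fold change -0.87, SE 0.21, adjusted p = 0.0147) and 6 were not called. EBF3 was higher at Acute 24 h as well (log2 fold change 1.35, SE 0.18, adjusted p = 0.00129). Of 25 other transcription factors of the striatum and ganglionic eminences, 9 were higher and 4 lower at 1 mM Acute 1 h, with a median log2 fold change of 0.21 against 0.011 over all genes tested, of which 16% were called. OTX2 (log2 fold change 0.42, SE 0.13, adjusted p = 0.0442) and NR2F2 (log2 fold change 0.67, SE 0.10, adjusted p = 0.00128) were higher, and LMO4 (log2 fold change -0.73, SE 0.14, adjusted p = 0.00522) was lower. At 1 mM Chronic 1 h, 2 of the 25 were higher and 1 lower, where 2.08% of all genes were called. Of 24 genes of striatal projection neurons, 2 were higher and 2 lower at 1 mM Acute 1 h. GAD2, an enzyme of GABA synthesis, was among those higher (log2 fold change 0.66, SE 0.15, adjusted p = 0.0111), while ARPP21 (log2 fold change -0.64, SE 0.14, adjusted p = 0.00884) and PDE1C were lower.

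Likeness of pattern was described by Pearson's r of log2(TPM + 1) after subtracting each experiment's mean, with no test, since libraries of a group share their treatment. Over 52 libraries, without quinpirole replicate 1, the members formed loose sets. FOXP1 and BCL11B had r = 0.77, FOXP1 and FOXP2 0.63, and MEIS2 and FOXP2 0.58, while ZNF503 had r = 0.54 with EBF1 and 0.52 with SIX3. BCL11B had r = 0.050 with EBF1 and 0.046 with SIX3. The genes most like ZNF503 were FZD1 (r = 0.85) and ADSL (r = 0.85), those most like EBF1 AAGAB (r = 0.74) and EBF3 (r = 0.73), those most like SIX3 PDLIM5 (r = 0.79) and OTX2 (r = 0.79) and those most like BCL11B BCL2 (r = 0.87) and TIAM2 (r = 0.86). For FOXP1 they were KDM4C (r = 0.84) and XPOT (r = 0.84), for FOXP2 KLF12 (r = 0.81) and NOVA1 (r = 0.77), for MEIS2 GRK3 (r = 0.70) and ATP8A1 (r = 0.69), for GSX2 LHX5 (r = 0.77) and AL139246.5 (r = 0.75) and for ISL1 PLK4 (r = 0.53) and HMGA2 (r = 0.53). With all 53 libraries most of these names changed. ZNF503 was then most like CACHD1 (r = 0.86) and TENM3 (r = 0.85), EBF1 most like RBMS3 (r = 0.92) and SNAP25-AS1 (r = 0.92), SIX3 TSHZ2 (r = 0.90) and MCTP2 (r = 0.88), BCL11B POGZ (r = 0.91) and BACH2 (r = 0.88), FOXP1 CRACR2A (r = 0.97) and COX10-AS1 (r = 0.97), FOXP2 ADAM10 (r = 0.89) and RIMS2 (r = 0.89), MEIS2 GRK3 (r = 0.74) and GLI3 (r = 0.73), GSX2 LHX5 (r = 0.81) and B3GALT6 (r = 0.80) and ISL1 SOX2-OT (r = 0.76) and SGO1 (r = 0.75). LHX5 for GSX2 and GRK3 for MEIS2 were named in both.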

How the data were processed

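RNA-seq of 53 libraries was used. The authors mapped reads in CLC Genomics Workbench to GRCh38 (hg38 per the labels) and deposited 1 table of 60676 genes per library. The deposited read counts (exon, intron and gene reads, which are the sum of the other two) are not normalized, and the authors made TPM from exon reads and exon length. Which of the study's sequencing providers ran which library is not given in the sources used here, so no batch was modelled. Groups came from the labels.

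Tests used exon reads in edgeR 4.0.16 under R 4.3.3 (filterByExpr with minimum count 10 and minimum total 15, TMM, glmQLFit, glmQLFTest), with all groups of an experiment in 1 fit, both doses together for dose differences, and Benjamini-Hochberg adjustment over all genes tested. A call is an adjusted p under 0.05. The SE is the log2 fold change over the root of F, and 95% intervals use the t distribution with the fit's degrees of freedom. All 9 members passed the filter in each fit of a whole experiment. The steps were tested on simulated data. Alternatives were gene reads, intron reads, DESeq2 1.42.0 size factors and its Wald test, no filter, only the groups compared, a replicate block, the study's thresholds (a fold change of 2 and TPM of 1), each library left out in turn, and 1 mM fits without replicate 1 of 1 mM Acute 24 h. Agonist fits without quinpirole replicate 1 as a library of neither group, or with gene or intron reads, were chosen after seeing the data, as was likeness over 52 libraries. Python 3.11.15, pandas 2.3.3 and matplotlib 3.10.9 made the tables and figures.

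The members and lists were chosen with earlier results of these data known. Named genes are the members, genes overlapping them, up to 4 called genes of highest mean TPM per list (some are not reported here), and the 2 genes most like each member over all libraries. The cell type marker lists give a check of the label and values beside results, and single markers outside this rule (RAX, CHAT, HES5, S100B, GFAP among them) were named after their values were seen. Read floors cover counting error only.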

Additional observations from a re-analysis of the deposited data

Results flagged for a closer look

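Some effects of the same contrast differed between groups by a test of the difference itself. At 1 mM, Chronic 1 h and Acute 1 h differed by a log2 fold change of -1.11 for EBF1, -1.01 for SIX3 and -0.91 for ZNF503, each lower in all 3 chronic libraries than in all 3 acute ones. For EBF1 the intron reads went the other way (0.83). The effect of Acute 1 h on ZNF503 was larger at 1 mM than at 1 µM by 1.32 on the log2 scale, with 3 of 3 libraries at 1 mM and 2 of 3 at 1 µM above every PBS library of their dose. Dose and experiment cannot be told apart in this difference.

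In the time course some members had every library of 1 day above the AA mean and every library of another below it. These differences were not tested, the share of all genes with this pattern was not counted, and 5 Day has 2 libraries. The AA libraries spanned 42.5 to 55.3 TPM for MEIS2, 4.04 to 5.68 TPM for GSX2 and 58.2 to 82.2 TPM for ZNF503. Of the days named here, only 3 Day of MEIS2 and 2 Day of GSX2 lay wholly outside these ranges. So did 23.0% of genes below AA at 3 Day and 5.26% above it at 2 Day. MEIS2 had a mean of 48.9 TPM in AA and 56.1 TPM at 5 Day, which was higher than 2 Day by 15.3 TPM, than 3 Day by 20.3 TPM and than 4 Day by 12.8 TPM. GSX2 had a mean of 4.85 TPM in AA, and 5 Day minus 2 Day was -2.93 TPM and 5 Day minus 4 Day -1.42 TPM. ZNF503 had a mean of 69.3 TPM in AA and was 18.6 TPM higher at 4 Day than at 3 Day.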

How the results depend on the processing

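Over 21 comparisons 17 values of members passed in all. The comparisons share libraries, so these are not 17 separate results, and the share of all genes called is given with each comparison above. The number of members called moved by over 1.5 times as follows, with the share of all genes called in parentheses. With gene reads they were 5 (47.2%) for 1 mM Acute 1 h, 0 (0.992%) for 1 mM Chronic 1 h, 1 (2.13%) for 1 µM Acute 24 h, 1 (3.35%) for 2 Day, 2 (4.95%) for 3 Day and 3 (27.9%) for the dose difference at Acute 1 h. With only the groups compared they were 7 (45.5%) for 1 mM Acute 1 h, 0 (0%) for 1 mM Acute 24 h, 5 (25.4%) for 1 mM Chronic 1 h, 1 (2.13%) for 1 µM Acute 24 h, 5 (44%) for 1 mM Chronic 1 h against 1 mM Acute 1 h, 2 (9.22%) for 3 Day, 0 (0.373%) for 5 Day and 1 (0.939%) for SKF82958 against water. Without 1 mM Acute 24 h replicate 1, a library of neither group they were 7 (39.8%) for 1 mM Acute 1 h, 3 (18.4%) for 1 mM Chronic 1 h and 1 (8.48%) for 1 mM Chronic 24 h. Under the study's thresholds they were 1 (4.1%) for 1 mM Acute 1 h, 1 (3.7%) for 1 mM Acute 24 h, 0 (0.82%) for 1 mM Chronic 1 h, 0 (1.18%) for 1 µM Acute 24 h, 0 (0.495%) for 2 Day, 0 (1.35%) for 3 Day, 0 (0.507%) for 4 Day and 0 (0.286%) for 5 Day. With intron reads they were 4 (38%) for 1 mM Acute 24 h, 0 (2.54%) for 1 mM Chronic 1 h, 1 (12.8%) for 1 µM Acute 1 h, 0 (2.85%) for 1 µM Acute 24 h, 1 (8.57%) for 1 µM Chronic 1 h, 1 (3.52%) for 2 Day, 2 (2.53%) for 3 Day, 0 (0.789%) for 4 Day, 0 (0.789%) for 5 Day and 1 (3.27%) for the dose difference at Acute 24 h. With DESeq2's Wald test they were 2 (10.7%) for 1 µM Acute 1 h, 1 (4.32%) for 1 µM Chronic 1 h against 1 µM Acute 1 h, 2 (8.57%) for 3 Day, 3 (2.49%) for 5 Day and 1 (2.39%) for the dose difference at Acute 24 h. With the replicate block they were 1 (5.66%) for 1 µM Acute 1 h, 0 (3.42%) for 4 Day and 2 (0.96%) for 5 Day. With no filter they were 1 (1.19%) for 1 µM Acute 24 h, 3 (6.35%) for 3 Day and 2 (2.96%) for 5 Day. Under the study's thresholds there were also 2, in place of 3, for 1 mM Chronic 1 h against 1 mM Acute 1 h, and 5 calls in all. Leaving out 1 library of the groups compared gave 2 to 3 for 1 mM Acute 1 h, 1 to 5 for 1 mM Acute 24 h, 0 each time for 1 mM Chronic 1 h, 0 to 1 for 1 mM Chronic 24 h, 0 to 1 for 1 µM Acute 1 h, 0 to 1 for 1 µM Acute 24 h, 1 each time for 2 Day, 0 to 1 for 3 Day, 0 to 1 for 4 Day, 0 to 1 for 5 Day and 0 to 1 for the dose difference at Acute 24 h, and the count first given in each other comparison. The cause was not tested. Same-numbered libraries of different groups had a mean correlation between -0.025 and 0.023 per experiment, while single pairs ran from -0.301 to 0.446 at 1 µM. Replicate numbers were not used as pairs in the main test, and the replicate block gave 18 calls in all.

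Log2 fold changes changed sign in some settings. For BCL11B these were 1 mM Acute 1 h 0.23 (intron reads), 1 mM Acute 24 h -0.35 to 0.24 with a library left out, 1 µM Acute 1 h -0.067 to 0.041 with a library left out, -0.0040 (DESeq2 size factors), -0.0043 (DESeq2 Wald test) and -0.038 (no filter on low counts). For EBF1 these were 1 mM Acute 1 h -0.090 (total gene reads) and -0.94 (intron reads), 1 mM Acute 24 h -0.12 (total gene reads) and -0.76 (intron reads), 1 mM Chronic 1 h against 1 mM Acute 1 h 0.83 (intron reads). For FOXP1 these were 1 mM Acute 24 h -0.33 to 0.40 with a library left out, -0.33 (total gene reads) and -0.58 (intron reads), the dose difference at Acute 24 h -0.66 to 0.062 with a library left out. For FOXP2 these were 1 mM Acute 24 h -0.060 to 0.14 with a library left out, -0.23 (total gene reads) and -0.61 (intron reads), 1 mM Chronic 1 h against 1 mM Acute 1 h 0.13 (total gene reads) and 0.36 (intron reads), 1 mM Chronic 1 h 0.080 (intron reads). For ISL1 these were 1 mM Chronic 1 h against 1 mM Acute 1 h 0.15 (intron reads). For MEIS2 these were 1 µM Acute 1 h -0.21 (intron reads), 1 µM Chronic 1 h -0.039 to 0.22 with a library left out, -0.16 (total gene reads) and -0.82 (intron reads), 5 Day -0.19 (intron reads). The cause was not tested. ISL1 and GSX2 had few reads, which limits their precision.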
